A study of Homo sapiens with 8 samples.

Results

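The control siRNA (siControl) and the negative control miRNA (nc) were compared in DU145, an established human prostate cancer line that grows without androgen. Each control was measured on 1 array, so the comparison uses 2 of the 8 arrays of the series, and it was read over the 18417 genes that had a probe set with a single gene symbol. The culture medium was RPMI 1640 with 10% fetal bovine serum, and total RNA was taken 72 hours after transfection. The other arrays hold DU145 with miR-29b or with an siRNA against TET2 (siTET2), and the LNCaP prostate cancer line with the same 4 constructs. The sequences, doses and transfection reagent of the controls were not given in the sources used here. No group had a replicate. A difference between the arrays therefore joins the constructs, the dishes and the arrays, which cannot be told apart, and no p-value was computed.

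Neither control is meant to silence a human gene, yet both put short RNA into the cell by transfection. Double-stranded RNA in the cytoplasm is known to be read by sensors such as RIGI and IFIH1, which switch on interferon and, through it, a set of antiviral genes. Cells set their sterol and fatty acid enzymes through SREBP transcription factors, which INSIG proteins hold in the endoplasmic reticulum when sterols are plentiful. SREBP factors are known to induce the enzymes of cholesterol synthesis, of fatty acid synthesis and desaturation, and INSIG1 and the SREBF genes themselves.

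The arrays matched their label. Of 11 DU145 markers measured, all 11 lay above the array's median in both arrays, and 1 of 7 LNCaP markers (STEAP2), 1 of 11 immune cell markers (CD68) and 0 of 10 fibroblast markers did. The log2 levels of the fibroblast markers ranged from 2.99 to 7.19 with nc and from 2.93 to 7.34 with siControl. Genes were counted when their mean over both arrays reached 7.40, the median of such means, which left 9209 genes. Their median difference, siControl minus nc, was -0.03 on the log2 scale, and the middle 50% of the genes lay between -0.14 and 0.07. Of the 9209 genes, 3885 (42.2%) were above 0 and 5318 below 0, the background for counts by sign in this comparison. In bulk RNA, fewer cells of a kind and less RNA per cell cannot be told apart.

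At a difference of at least 1.5-fold (0.585 on the log2 scale), 13 genes were higher with siControl (0.141% of the genes) and 14 were lower (0.152%). At 2-fold, 3 genes were higher (0.0326%) and 0 lower (0.0%). At a smaller threshold of 0.32 on the log2 scale, 151 were higher (1.64%) and 311 lower (3.38%). The balance of directions depended on the scaling. After quantile normalization of the 4 DU145 arrays the counts at 1.5-fold were 17 and 12, and after a curve of difference on level was subtracted they were 17 and 9. At 0.32 they were 192 and 224 after the first and 228 and 202 after the second. The genes lower by at least 1.5-fold were led by lipid enzymes and their regulators. Of the 14, 6 belonged to 3 lists of sterol and fatty acid genes, which hold 56 of the 9209 genes or 0.608%. Of the 13 higher genes, 4 (IFIT1, CDK6, KRTAP21-1 and LOC442132) were below 7.40 with nc and passed the floor through the siControl array. Of the 14 lower genes, 2 (SREBF1 and TFAP2A-AS1) were below it with siControl. The 13 higher genes included interferon-stimulated genes, a chemokine, a collagenase and stress-response factors.

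**Figure D1:**
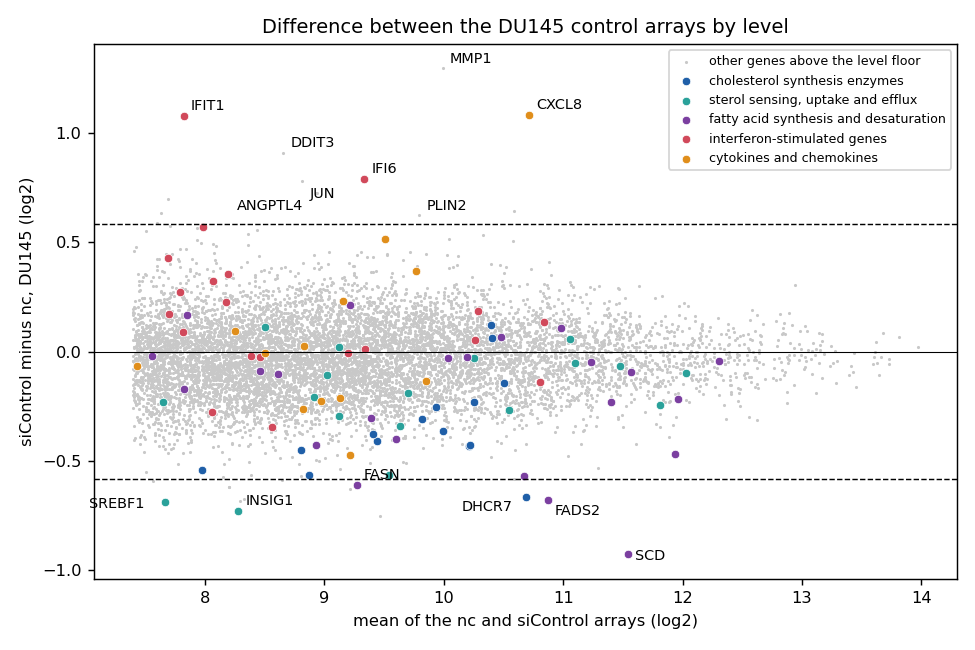
Each point is a gene above the level floor, with the mean of the nc and siControl arrays of DU145 on the x axis and siControl minus nc on the y axis, both in log2 units; dashed lines mark 1.5-fold. Genes of the sterol and fatty acid lists lie mostly below 0, down to SCD at -0.93, while IFIT1 (1.08) and CXCL8 (1.09) stand at the top with MMP1 (1.30).

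Many genes of lipid synthesis were lower with siControl. SCD, the desaturase that makes monounsaturated fatty acids, had the largest negative difference of all 9209 genes. Its log2 level was 12.01 with nc and 11.08 with siControl, a difference of -0.93 or 1.90-fold. In the other DU145 arrays it was 11.69 with miR-29b and 9.41 with siTET2, so siControl lay between the arrays of both active constructs. INSIG1, which retains SREBP in the endoplasmic reticulum, was 8.65 with nc and 7.92 with siControl (-0.73). SREBF1, the gene of the SREBP that drives fatty acid synthesis, was 8.01 with nc and 7.32 with siControl (-0.69). SREBF2, the gene of the SREBP that drives cholesterol synthesis, was 9.83 and 9.26 (-0.57). INSIG1 and both transcription factor genes were thus lower on the siControl array, by 1.5-fold or close to it. With miR-29b and siTET2, INSIG1 was 8.39 and 7.77, SREBF1 7.84 and 7.27, and SREBF2 9.49 and 9.30.

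The starts of SCD, INSIG1 and SREBF2 are shown because these known SREBP targets were lower with siControl and hold a sterol response core, for which they were picked. The promoters of SREBF1, FADS2, DHCR7 and SLC25A1, which were also lower, do not hold it in this window. The sequences are from RefSeq (GRCh38.p14), 5′ to 3′, from 250 bases before to 50 after the start of the gene. Capitals mark CACNCCAC, the core of a sterol response element, and CCAAT, the box bound by the SREBP partner NF-Y, each searched on both strands.
SCD promoter, chr10:100346983-100347282, plus strand: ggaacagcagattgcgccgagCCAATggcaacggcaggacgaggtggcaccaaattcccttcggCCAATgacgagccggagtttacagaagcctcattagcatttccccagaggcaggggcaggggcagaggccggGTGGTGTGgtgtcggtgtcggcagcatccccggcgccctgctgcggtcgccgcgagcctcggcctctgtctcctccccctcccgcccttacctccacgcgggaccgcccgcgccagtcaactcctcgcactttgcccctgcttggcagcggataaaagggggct
INSIG1 promoter, chr7:155297628-155297927, plus strand: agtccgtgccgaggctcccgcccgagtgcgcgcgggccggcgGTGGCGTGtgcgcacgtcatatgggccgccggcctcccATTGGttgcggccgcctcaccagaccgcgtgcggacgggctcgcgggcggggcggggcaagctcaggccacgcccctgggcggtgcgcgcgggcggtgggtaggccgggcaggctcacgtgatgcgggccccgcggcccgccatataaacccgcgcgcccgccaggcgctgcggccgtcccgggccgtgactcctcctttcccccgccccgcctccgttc
SREBF2 promoter, chr22:41832855-41833154, plus strand: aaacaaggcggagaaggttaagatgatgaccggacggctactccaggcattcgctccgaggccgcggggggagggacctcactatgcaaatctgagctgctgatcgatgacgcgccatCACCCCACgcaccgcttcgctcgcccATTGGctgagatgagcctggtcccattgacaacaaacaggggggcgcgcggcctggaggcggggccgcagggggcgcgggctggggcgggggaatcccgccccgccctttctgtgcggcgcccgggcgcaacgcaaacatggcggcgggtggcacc
In SCD the core lies on the opposite strand and its run begins 114 bases before the start, with CCAAT at 229 and 186 bases. In INSIG1 the core begins at 208 bases and an inverted CCAAT at 170, and in SREBF2 the core begins at 132 bases and an inverted CCAAT at 106. Of 27305 promoters of this length, 5.74% hold CACNCCAC and 35.7% hold CCAAT. Among the promoters of cholesterol synthesis enzymes, 1 of 15 holds the core and 11 of 15 hold CCAAT. For fatty acid synthesis and desaturation these were 3 of 24 and 13 of 24, and for sterol sensing, uptake and efflux 3 of 18 and 7 of 18. The match is to letters only and shows no binding.

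Cholesterol synthesis enzymes had the lowest median of the lists with at least 5 members above the floor. Of 21 listed, 17 were measured and 15 lay above the floor, with a median of -0.38 against -0.03 over all genes. Below 0 were 13 of the 15, where 5318 of all 9209 genes were. Lower by at least 0.32 were 9 of 15, where 3.38% of all genes were, and 0 were higher by that size. DHCR7, which makes cholesterol in the last step from 7-dehydrocholesterol, was 11.02 with nc and 10.36 with siControl (-0.66), the only member past 1.5-fold. TM7SF2, a sterol reductase, was 9.15 and 8.59 (-0.56). LSS, which closes the sterol ring as lanosterol synthase, was 8.25 and 7.70 (-0.54). HMGCS1, the synthase of the mevalonate pathway, was at -0.25 and IDI1, an isomerase of isoprenoid units, at -0.23.

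Also lower were MVD (-0.45), SQLE, the squalene epoxidase (-0.43), MSMO1 (-0.43), EBP (-0.41), ACAT2, a thiolase (-0.38), FDPS, which makes farnesyl diphosphate (-0.37), and NSDHL (-0.31). The members nearest to or above 0 were CYP51A1 (-0.14), SC5D (0.06) and LBR, a sterol reductase that also anchors the nuclear lamina (0.12). The other probe set of CYP51A1 gave -0.10. Below the floor, MVK was at -0.41 and PMVK at -0.10. On the arrays that the comparison did not use, siTET2 minus miR-29b, 14 of the 15 members were below 0, with a median of -0.35. Of all 9209 genes, 4778 were below 0 in that comparison, with a median of -0.01. That comparison shares no array with siControl minus nc, but both of its constructs are active. In LNCaP, siControl minus nc gave 11 of the 15 members above 0 and a median of 0.13. Of the 8055 genes above both lines' floors, 4539 were above 0 in LNCaP, with a median of 0.03. MSMO1 was at 0.55, IDI1 at 0.48 and SQLE at 0.31 there, and DHCR7 at 0.11. The sign of the list's median thus differed between the lines, and this difference was not tested.

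Genes of fatty acid synthesis and desaturation were mostly lower with siControl. Of 26 members measured, 23 lay above the floor, with a median of -0.10. Below 0 were 19 of the 23, where 5318 of all 9209 genes were. With the level floor at the 75th percentile the median was -0.22 over 17. Lower by at least 0.32 were 7 of 23 (all genes 3.38%) and 0 were higher by that size. FADS2, the delta-6 desaturase of polyunsaturated fatty acids, was 11.21 with nc and 10.53 with siControl (-0.68). FASN, the fatty acid synthase, was 9.58 and 8.96 (-0.61). SLC25A1, the carrier that exports citrate from mitochondria, was 10.96 and 10.38 (-0.57). FADS1, the delta-5 desaturase, was at -0.47, ACSS2, which makes acetyl-CoA from acetate, at -0.43, and FADS3 at -0.40. With SCD these are the 7, and all 7 were also below 0 for siTET2 minus miR-29b, from -2.28 for SCD to -0.24 for FADS3. Of the 23 members, 16 were below 0 in that comparison, where 4778 of all 9209 genes were. ACACA, the acetyl-CoA carboxylase, was at -0.30 ACLY, the citrate lyase, at -0.23 and the desaturase SCD5 at -0.17. Of the elongases, ELOVL1 was at -0.09, ELOVL5 at -0.04 and ELOVL6 at -0.03, and ELOVL2 (0.11), ELOVL4 (0.17) and ELOVL7 (0.21) were above 0. In LNCaP the 20 members above both floors had a median of 0.10, against -0.20 for the same members in DU145.

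Genes of sterol sensing, uptake and efflux had a median of -0.20 over 18 members above the floor of 21 measured. Below 0 were 15 of the 18, where 5318 of all 9209 genes were. Lower by at least 0.32 were 4 (all genes 3.38%), INSIG1, SREBF1, SREBF2 and SCARB1, a lipoprotein receptor (-0.34). SCAP, the escort of SREBP, was at -0.29, LRP8 at -0.27, NPC1, which releases cholesterol from lysosomes, at -0.25 and STARD4, a sterol carrier, at -0.23. The proteases that cleave SREBP were close to 0, with MBTPS1 at -0.05 and MBTPS2 at 0.02, and INSIG2 was at 0.11. ABCA1, the cholesterol exporter induced by LXR, lay below the floor at 7.24 with nc and 6.94 with siControl (-0.30). For siTET2 minus miR-29b, 9 of the 18 were below 0, where 4778 of all 9209 genes were, a similar share. The list's median there was -0.04, and INSIG1 (-0.62) and SREBF1 (-0.57) were among the 9. In LNCaP, INSIG1 was at 0.20, SREBF1 at -0.12 and SREBF2 at 0.01.

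**Figure D2:**
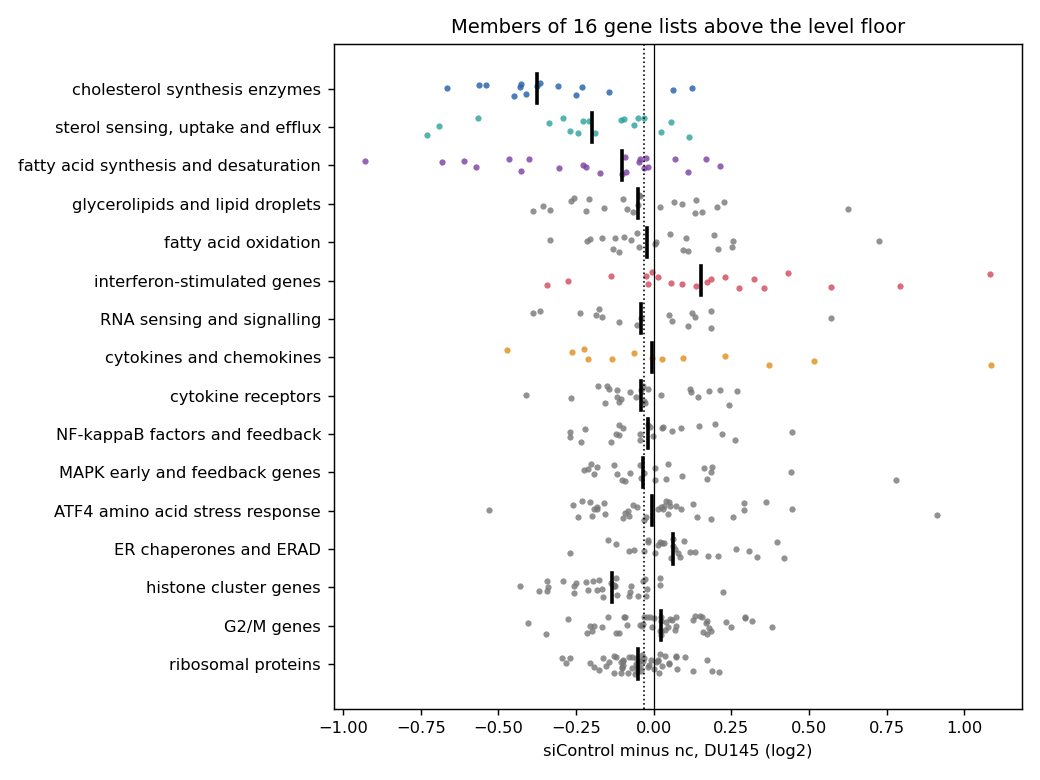
Points are members of 16 gene lists above the level floor, placed by siControl minus nc in DU145 (log2, x axis); black bars are list medians, the dotted line is the median of all 9209 genes (-0.03), and vertical scatter within a row only separates points. Cholesterol synthesis enzymes sit furthest to the left with a median of -0.38, and interferon-stimulated genes furthest to the right with 0.15.

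Among lipid genes outside synthesis, ANGPTL4 and PLIN2 were higher with siControl. ANGPTL4, a secreted inhibitor of lipoprotein lipase, was 8.57 with nc and 9.29 with siControl, 0.73 higher or 1.65-fold. PLIN2, a coat protein of lipid droplets, was 9.48 and 10.11 (0.63). Both are known targets of PPAR factors and of hypoxia. In the other DU145 arrays ANGPTL4 was 8.46 with miR-29b and 9.33 with siTET2, and PLIN2 9.45 and 10.66. Their lists showed no such difference: fatty acid oxidation genes had a median of -0.02 over 22 members (-0.10 over 11 with the floor at the 75th percentile) and glycerolipid and droplet genes -0.05 over 23. CPT1A, which admits fatty acids to mitochondria, was at 0.25 and PDK4, a kinase that spares glucose, at 0.21. MGLL (-0.39), PCYT2 (-0.36) and LPIN1, a phosphatidate phosphatase (-0.34), were lower by more than 0.32. Of the hypoxia and glycolysis list, 0 of 30 members reached 0.32 in either direction. Over all genes these shares were also small, 1.64% higher and 3.38% lower. Whether PPAR factors or hypoxia had a part was not tested. In LNCaP, both genes lay below the floor, with ANGPTL4 at -0.36 and PLIN2 at -0.61.

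Part of the interferon-stimulated genes were higher with siControl. Of 58 listed, 55 were measured and 20 lay above the floor, with a median of 0.15. Above 0 were 14 of the 20, where 42.2% of all genes were. With the level floor at the 75th percentile, 7 members were left and the median was 0.05. Higher by at least 0.32 were 6 of 20, where 1.64% of all genes were, and 1 was lower by that size. IFIT1, an antiviral protein that binds foreign RNA, was 7.28 with nc and 8.36 with siControl (1.08, 2.12-fold). Its nc value is below the floor of 7.40, so it passed through the siControl array where it is high. With miR-29b it was 7.04 and with siTET2 8.10, so that both siRNA arrays lay above both miRNA arrays. IFI6, an interferon-induced membrane protein, was 8.94 with nc and 9.73 with siControl (0.79), and 8.65 and 10.01 with miR-29b and siTET2. Among the sensors, RIGI was 7.70 with nc and 8.27 with siControl (0.57). IRF9, the DNA-binding part of the interferon-activated factor ISGF3, was 7.47 and 7.91 (0.43).

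The starts of IFIT1 and IFI6 are shown because these were the members above the floor past 1.5-fold. They are RefSeq sequences of the same build and span, and capitals mark GAAA, any 2 bases and GAAA, a core of the interferon-stimulated response element, searched on both strands.
IFIT1 promoter, chr10:89392373-89392672, plus strand: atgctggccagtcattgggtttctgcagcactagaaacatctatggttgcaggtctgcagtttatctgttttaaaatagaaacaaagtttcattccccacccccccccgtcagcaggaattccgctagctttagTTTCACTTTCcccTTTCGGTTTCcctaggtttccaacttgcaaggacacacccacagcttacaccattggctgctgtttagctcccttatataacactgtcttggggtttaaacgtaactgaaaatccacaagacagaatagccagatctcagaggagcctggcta
IFI6 promoter, chr1:27672143-27672442, minus strand: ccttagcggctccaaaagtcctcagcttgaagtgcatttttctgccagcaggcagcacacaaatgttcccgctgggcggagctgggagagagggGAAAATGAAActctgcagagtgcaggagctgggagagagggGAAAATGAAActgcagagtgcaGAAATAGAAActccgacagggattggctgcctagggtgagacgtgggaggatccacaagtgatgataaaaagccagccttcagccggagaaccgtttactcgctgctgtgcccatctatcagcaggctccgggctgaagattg
IFIT1 holds 2 runs on the opposite strand, beginning 116 and 103 bases before the start, and IFI6 holds 3 on the same strand, at 156, 115 and 93 bases. The motif is in 3.65% of all promoters and in 26 of the 44 promoters of the interferon list. RIGI has no such letters in this window.

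Most interferon-stimulated genes lay below the level floor. Without it their median was 0.18 over 55 members, where that of all 18417 genes was 0.0015. The share of all genes at least 1.5-fold higher also rose, from 0.141% with the floor to 0.489% without it. Without the floor, 11 of 55 members were at least 1.5-fold higher, where 0.489% of all 18417 genes were, and 0 were lower by that size, where 0.195% were. In all, 43 of 55 were above 0, where 9264 of all 18417 genes were. IFIT3 was 5.06 with nc and 6.39 with siControl (1.33), and IFIT2 was 5.51 and 6.82 (1.31), both antiviral relatives of IFIT1. OASL, a 2′-5′-oligoadenylate synthetase-like protein, was 6.51 and 7.64 (1.13). Behind them came IFI16, a DNA sensor (0.97), IFI44 (0.92), DDX60, a helicase (0.85), SAMD9 (0.75), MX1, an antiviral GTPase (0.63), and OAS2 (0.62). These levels lie under those of the median gene, where array values are least certain. ISG15 was at 0.14, and members below 0 included IRF7 (-0.01), ADAR (-0.14), IFITM2 (-0.28) and IFI35 (-0.34). The higher level with siControl was thus not shared by every member. For siTET2 minus miR-29b all 20 members above the floor were above 0, with a median of 0.34. Of all 9209 genes, 4428 were above 0 in that comparison, with a median of -0.01. In LNCaP the 15 members above both floors had a median of 0.10, against 0.05 for the same members in DU145. DTX3L (0.91), IFI6 (0.59) and EIF2AK2, the kinase PKR (0.54), were highest there. IFIT1 was at 0.04 in LNCaP and OASL at -0.44.

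The ligands and receptors of this system, chosen after their values were seen except those in a list, were close to 0 or below the floor. IFNB1 was 3.47 with nc and 3.53 with siControl (0.06) and IFNL1 5.94 and 6.20 (0.26), both below the floor. The receptor chain IFNAR1 was at -0.03 and IFNAR2 at -0.08. RNA sensing and signalling genes had a median of -0.04 over 17 members, which was 0.05 over 19 without the floor and 0.12 over 7 with it at the 75th percentile, with RIGI at 0.57, the adaptor MAVS at -0.37 and STING1, the adaptor of DNA sensing, at -0.39. IFIH1 lay below the floor, at 6.20 with nc and 6.44 with siControl (0.25). Class I antigen presentation genes, which interferon also induces, had a median of -0.07 over 10 members, with 0 past 0.32. Over all genes 1.64% were higher and 3.38% lower by that size.

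**Figure D3:**
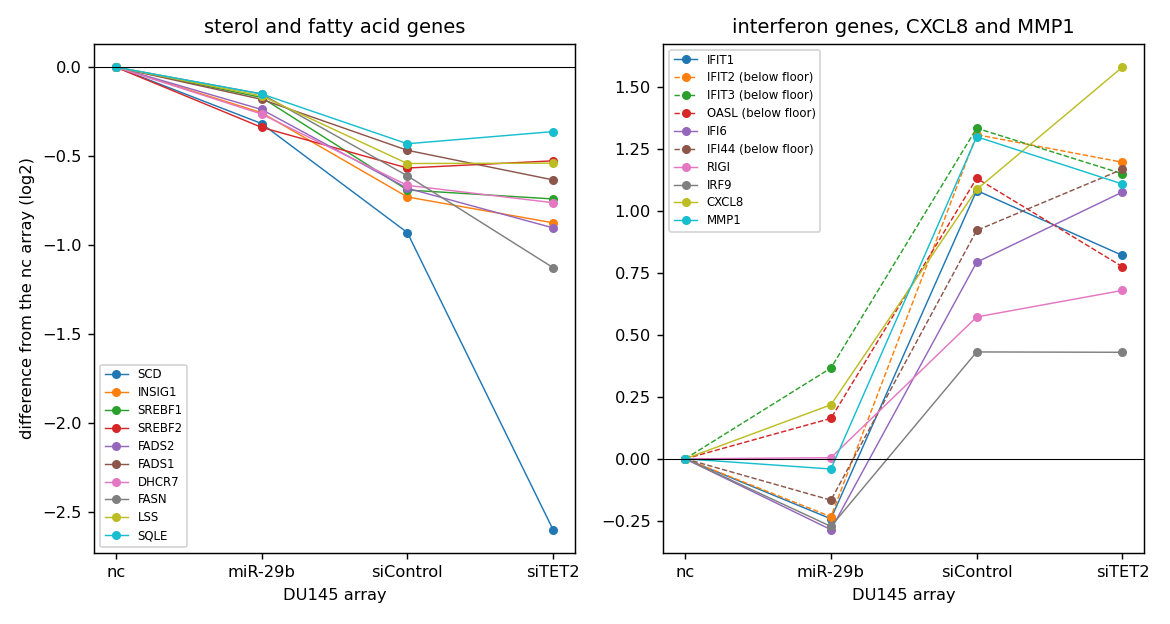
Lines join the values of a gene on the 4 DU145 arrays (x axis, categories with no order), as the log2 difference from the nc array (y axis); dashed lines are genes below the level floor. The genes were picked and do not stand for their whole lists. SCD and the other lipid genes shown are lower on both siRNA arrays than on both miRNA arrays. The interferon genes shown, CXCL8 and MMP1 are higher on the siRNA arrays, with IFIT1 1.08 above nc with siControl.

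MMP1 and CXCL8 were the genes with the largest positive differences above the floor. MMP1, the interstitial collagenase, was 9.34 with nc and 10.64 with siControl (1.30, 2.46-fold), and 9.30 with miR-29b and 10.45 with siTET2. It stood alone in its list: matrix proteases and the urokinase system had a median of -0.01 over 11 members, and MMP14 (0.10), PLAU (-0.04), PLAUR (-0.01) and TIMP1 (-0.15) were within 0.32 of 0. CXCL8, the chemokine that attracts neutrophils, was 10.17 with nc and 11.25 with siControl (1.09, 2.12-fold), and 10.39 with miR-29b and 11.75 with siTET2. Its promoter is shown because it holds letters of both AP-1 and NF-kappaB sites, the factors known to induce it. Capitals mark TGANTCA and GGAATTTCC, searched on both strands.
CXCL8 promoter, chr4:73740319-73740618, plus strand: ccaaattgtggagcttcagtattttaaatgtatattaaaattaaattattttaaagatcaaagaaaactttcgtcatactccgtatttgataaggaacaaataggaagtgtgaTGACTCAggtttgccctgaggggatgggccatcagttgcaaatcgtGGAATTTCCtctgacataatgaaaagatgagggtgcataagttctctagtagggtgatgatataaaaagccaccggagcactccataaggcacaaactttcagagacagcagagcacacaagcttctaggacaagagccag
TGACTCA begins 137 bases before the start and GGAATTTCC 91 bases before it. TGANTCA is in 7.76% and GGAATTTCC in 0.472% of all promoters, and each is in 8 of 27 promoters of the cytokine list.

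Cytokines and chemokines as a list had a median of -0.01 over 13 members above the floor of 37 measured. Above 0 were 6 of the 13, where 42.2% of all genes were. The sign depended on the setting: the median was 0.23 over 7 members with the floor at the 75th percentile, and 0.17 over 8 with a curve on promoter GC content subtracted. CXCL1, another neutrophil chemokine, was 9.25 and 9.77 (0.52), IL24 9.58 and 9.95 (0.37), and CXCL2 9.04 and 9.27 (0.23). CXCL1 and CXCL2 are close paralogs, which probes may not fully separate. CSF1, the macrophage growth factor, was 9.45 with nc and 8.98 with siControl (-0.47), and 9.37 with miR-29b and 9.97 with siTET2. CXCL16 was at -0.26, CCL20 at -0.23, TNFSF9 at -0.21, IL18 at -0.14, CSF3 at -0.06 and CCL28 at -0.01, while LIF was at 0.03 and IL32 at 0.10. Higher by at least 0.32 were 3 of the 13 and lower 1 (all genes 1.64% and 3.38%). Below the floor, CXCL11, an interferon-induced chemokine, was 3.88 and 4.37 (0.49), TNF 5.17 and 5.51 (0.34), and IL6 7.16 and 7.03 (-0.13). CXCL10 was 3.60 and 3.80 (0.20), and CCL5 was 6.89 on both arrays (-0.01). For siTET2 minus miR-29b, 11 of the 13 were above 0, where 4428 of all 9209 genes were. Of the 13, 5 lay above the LNCaP floor, where 4 were below 0 with a median of -0.22, against -0.21 in DU145. Of the 8055 genes above both floors, 3516 were below 0 in LNCaP. CXCL8 lay below the LNCaP floor, at 7.57 with nc and 6.95 with siControl.

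NF-kappaB factors and feedback genes, many of which respond together with CXCL8, had a median of -0.02 over 23 members. BIRC2, an inhibitor of apoptosis, was at 0.44 and the kinase CHUK at 0.26, and NFKBIE and TNFAIP2 were both at -0.27. Cytokine receptors had a median of -0.04 over 25 members, with IL27RA at -0.41, TNFRSF9 at 0.27 and IL6ST, the shared receptor of the IL6 family, at 0.24. Among early and feedback genes of MAPK signalling, JUN, an AP-1 subunit, was 8.42 with nc and 9.20 with siControl (0.78, 1.72-fold). KLF10 was 8.69 and 9.14 (0.44). The other AP-1 members were close to 0 or lower, with FOSL1 at 0.05, JUNB at -0.13, FOSL2 at -0.18 and JUND at -0.23, and the list's median was -0.04 over 24. HBEGF, a ligand of the EGF receptor, was at 0.46 and ERBB2, the related receptor, at -0.49.

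DDIT3, the stress transcription factor CHOP, was 8.20 with nc and 9.11 with siControl (0.91, 1.88-fold), and 8.15 with miR-29b and 9.92 with siTET2. The ATF4 list it belongs to had a median of -0.0048 over 38 members above the floor, with 19 above 0 and 19 below. Of all genes, 42.2% were above 0. SLC7A11, the cystine transporter, was 9.63 and 10.08 (0.445), CEBPG, a partner of ATF4, 9.07 and 9.43 (0.36), ASNS, the asparagine synthetase, 9.41 and 9.70 (0.29), and PPP1R15A, which resets translation after stress, 8.46 and 8.75 (0.29). ATF4 itself was at -0.26, and its other probe set at 0.01. CHAC1 (0.03), TRIB3 (0.18) and SESN2 (-0.07), all known ATF4 targets, were within 0.32 of 0. PHGDH, the first enzyme of serine synthesis, was 11.55 and 11.02 (-0.53). Genes of endoplasmic reticulum chaperones and degradation had a median of 0.06 over 29, with 21 above 0, where 42.2% of all genes were. Higher by at least 0.32 were 3 of the 29, where 1.64% of all genes were. The co-chaperone DNAJB9 (0.42), HERPUD1, a component of protein degradation (0.40), and the co-chaperone DNAJC3 (0.33) were higher by more than 0.32, and HSPA5, the chaperone BiP, was at 0.31. In LNCaP, DDIT3 was 8.74 on both arrays and SLC7A11 was 0.59 higher with siControl.

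The remaining genes with the largest differences belonged to no single list. XRCC4, which acts in joining DNA ends, was 8.57 with nc and 9.30 with siControl (0.73), and ZFAND1 10.27 and 10.91 (0.64). CDK6, a kinase of the G1 phase, was 7.31 and 7.95 (0.63), and 7.39 with miR-29b and 8.66 with siTET2. ADPRM (0.58) and CENPQ, a kinetochore protein (0.57), lay just under the 1.5-fold threshold. The 13 higher genes also held LOC442132, a pseudogene. KRTAP21-1, a hair keratin-associated protein, was at 0.70, but its other probe set gave -0.12. On the lower side were SUSD2 (9.85 and 9.09, -0.75), NAPSA, an aspartic protease (8.64 and 7.96, -0.69), ADGRG2, an adhesion receptor (-0.62), COPS9, a subunit of the COP9 signalosome (-0.62), and ITGB2, an integrin chain of leukocytes (8.94 and 8.35, -0.59). Just short of the threshold, TOB1, an antiproliferative factor, was at -0.58, ACOT1, an acyl-CoA thioesterase, at -0.57 and ZNF362 at -0.57. ACOT1 has a near-identical paralog, ACOT2 (-0.50), from which probes may not separate it.

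**Figure D4:**
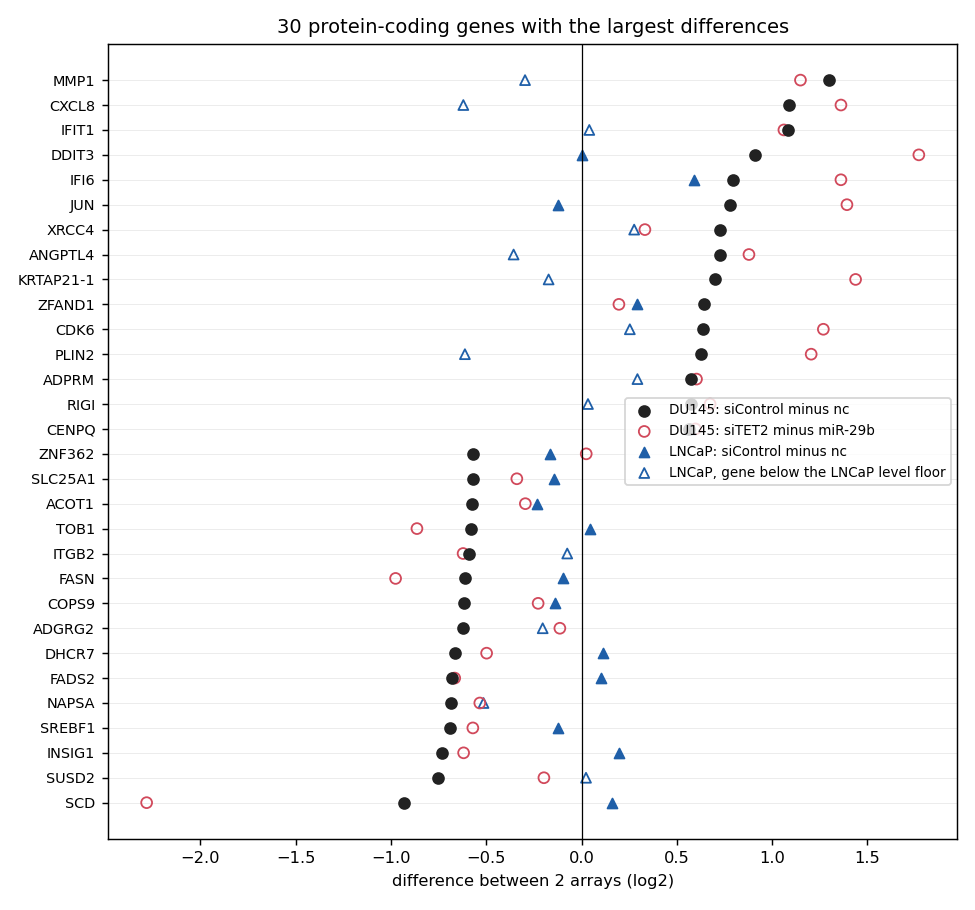
For the 15 protein-coding genes furthest above and the 15 furthest below 0 between the DU145 controls, black points give siControl minus nc, open circles siTET2 minus miR-29b in DU145 and triangles siControl minus nc in LNCaP (log2, x axis); open triangles are genes below the LNCaP floor. Open circles mostly lie on the side of the black points, while LNCaP has CXCL8 at -0.62 and PLIN2 at -0.61.

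The same genes were read on arrays that the comparison did not use. Of the 13 genes at least 1.5-fold higher, 12 were above the floor for siTET2 minus miR-29b in DU145, and 11 of these had the same sign there, where 48.4% of all genes did. Of the 14 lower genes, 13 of 14 had the same sign, where 51.6% of all genes did. Of the 13 higher genes 4, and of the 14 lower genes 2, had 1 control array below the DU145 floor. Both constructs of siTET2 minus miR-29b are active. A difference in the same direction by at least 0.32 was seen for 10 of 12 and 9 of 14, where 9.37% and 9.08% of genes above both floors were past that size. Over the 9209 genes above that comparison's own floor these shares were 9.47% and 8.99%. In LNCaP, siControl minus nc had the same sign for 3 of the 5 higher genes above the LNCaP floor, where 56.4% of all genes did. Among the lower genes it had the same sign for 5 of 9, where 43.6% of all genes did. In the same direction by at least 0.32 were 1 of the 5 and 0 of the 9, where 10.5% and 4.0% of all genes were. Of the 151 genes higher by at least 0.32 in DU145, 116 lay above the LNCaP floor and 95 of these (81.9%) were above 0 there, where 56.4% of all genes were, and 42 (36.2%) were above 0.32, where 10.5% were. Of the 311 lower genes, 236 lay above it and 162 (68.6%) were below 0, where 43.6% of all genes were. Of the 236, 11 (4.66%) were lower by at least 0.32, where 4.0% of all genes were. Over 8055 genes above both floors, the differences of the lines correlated across genes at Pearson r = 0.41 and Spearman rho = 0.46. Genes are not independent replicates, and the arrays of a construct may share handling and base-composition effects, whose part was not tested. LNCaP differed more between its controls: by at least 0.32, 954 of 9209 genes were higher with siControl (10.4%) and 500 lower (5.43%).

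**Figure D5:**
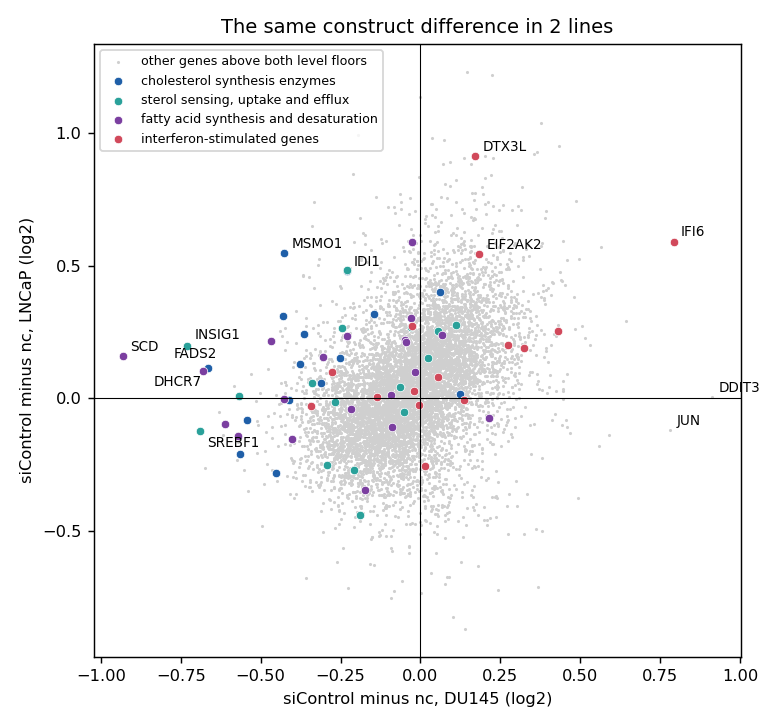
Each point is a gene above the level floor of both lines, with siControl minus nc in DU145 on the x axis and in LNCaP on the y axis (log2). Sterol and fatty acid genes lie mostly left of 0 in DU145 and on either side of 0 in LNCaP. SCD is at -0.93 and 0.16, and IFI6 is above 0 in both lines (0.79 and 0.59).

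The lists outside lipids, interferon, cytokines and stress with at least 5 members above the floor had medians between -0.26 and 0.07. Targets of miR-29, of interest because nc is the control of a miR-29b arm, had a median of -0.26 over the 5 matrix genes above the floor. All 5 were below 0, where 5318 of all 9209 genes were, and SERPINH1, a collagen chaperone, was at -0.40. Over all 26 matrix targets measured, without the floor, the median was -0.03. The 24 other miR-29 targets, a list that also holds CDK6, INSIG1 and SREBF1, had a median of -0.03. Genes of the small RNA machinery, which both constructs use, had a median of -0.01 over 20, with DICER1 at 0.23, and 0 reached 0.32. Over all genes 1.64% were higher and 3.38% lower by that size. Histone cluster genes had a median of -0.13 over 34 and 31 of these were below 0, where 5318 of all 9209 genes were. H4C4 was at -0.43 and H2BC8 at -0.37, though near-identical copies may share probes. In LNCaP the 31 histone genes above both floors had a median of 0.11. Targets of TGF-beta and YAP signalling had a median of -0.16 over 20, with AJUBA at -0.38, TGFBI at -0.36 and THBS1 at -0.33. Epithelial markers had a median of -0.15 over 25, with the adhesion protein EPCAM at 0.53 and the mucin MUC1 at -0.45. Without the floor that median was -0.04 over 29, and with a curve on promoter GC content subtracted -0.04 over 15.

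Cell cycle genes were close to 0. G2/M genes had a median of 0.02 over 51 members, with CDK1 at 0.38 and CDC25B at -0.41, and S phase genes -0.04 over 47, with CCNE2 at 0.34 and MCM2 at -0.39. In LNCaP the medians of these lists were 0.34 and 0.20. Targets of p53, which is mutant in this line, had a median of 0.05 over 17 (-0.02 over 5 with the floor at the 75th percentile), with GADD45A at 0.47. BCL2 family genes had a median of -0.03 over 11, with PMAIP1, which promotes cell death, at 0.43. Redox genes of NRF2 had a median of -0.08 over 22 and lysosome and autophagy genes -0.02 over 28 (-0.09 over 21 with that floor). Heat shock proteins (-0.02 over 14), ribosomal proteins (-0.05 over 58), sphingolipid genes (0.02 over 20, and 0.08 over 16 with the GC curve subtracted) and metallothioneins (0.07 over 7) had 0 members past 0.32. Over all genes 1.64% were higher and 3.38% lower by that size. Mesenchymal markers had a median of 0.06 over 10 (-0.07 over 5 with that floor), EGF receptor family genes 0.05 over 12, and small nucleolar and Cajal body RNAs -0.03 over 77, of which SNORA38B was at -0.67. TET2, the gene the siTET2 arm addresses, was 7.96 with nc and 7.85 with siControl.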

How the data were processed

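The deposited table holds 33297 probe sets on 8 arrays, with values read here as log2. Per the submitters' processing notes it was made with Affymetrix Expression Console and RMA, which corrects background, quantile-normalizes and summarises probes. The log base is not stated and was taken from their range and RMA's usual scale, and the set of arrays normalized jointly is not given in the sources used here. RMA compresses low signals, so differences of dim genes are uncertain.

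Gene names came from the platform annotation, checked by Entrez identifier against RefSeq. Of the probe sets, 19460 had 1 symbol, 1754 several (not named) and 12083 none listed; 19429 matched RefSeq. For 769 genes with several probe sets, that with the highest mean over 8 arrays was used. The difference siControl minus nc was taken per gene with Python 3.11.15 and pandas 2.3.3, and counting was tested on simulated data. With 1 array a group there is no error estimate; the number of arrays limits precision. Some well-known genes were not analysed here.

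There were 39 gene lists from textbook knowledge. Named genes are the 15 protein-coding genes above the floor with the largest difference in each direction, up to 8 members of each list, and members of the interferon, cytokine, sterol, fatty acid and ATF4 lists. Lists, members and thresholds were chosen with earlier results of these data known. Alternatives were other floors, probe set means, centring, quantile normalization, curves on level (statsmodels 0.14.6) and other thresholds.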

Additional observations from a re-analysis of the deposited data

Results flagged for a closer look

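In 3 gene lists the medians of siControl minus nc had opposite signs in the lines, both at least 0.1 in size over members above both floors, with 1 pair of arrays per line and no test of the difference. Cholesterol synthesis enzymes had a median of -0.38 in DU145 and 0.13 in LNCaP. Fatty acid synthesis and desaturation genes had -0.20 in DU145 and 0.10 in LNCaP. Histone cluster genes had -0.13 in DU145 and 0.11 in LNCaP. All genes above both floors had -0.03 in DU145 and 0.03 in LNCaP, so their medians also differed in sign, by less.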

How the results depend on the processing

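No paired analysis was possible because each construct has 1 array per line, and for the same reason no array could be left out. The main counts were 13 genes at least 1.5-fold higher and 14 lower. With no level floor they were 90 and 36, with the mean at the 75th percentile 5 and 6, at 2-fold 3 and 0, and at a log2 difference of 0.32 151 and 311. With a curve on mean level subtracted 9 were lower. With the stricter floor the medians were 0.054 for interferon-stimulated genes, 0.23 for cytokines and chemokines, and -0.22 for fatty acid genes. With a curve on promoter GC content subtracted, an alternative added after the data were seen, the cytokine median was 0.17. Over the 9 settings of a list median, the main one included, that of cholesterol synthesis enzymes ranged from -0.39 to -0.34, of interferon-stimulated genes from 0.05 to 0.20, and of fatty acid genes from -0.22 to -0.07. Some settings could change little. Centring subtracted 0.0015, the median over all 18417 genes, and probe set means alter only genes with several probe sets. Of the single genes, KRTAP21-1 moved, to 0.29 as the mean of its probe sets. Of the 36 lists with at least 5 members above the floor, 10 besides these moved by over 0.05 under at least 1 setting. The background signal of the arrays was not measured here, which limits what can be said of genes below the floor.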

Other observations

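Zinc finger genes named ZNF and a number, a group chosen after its values were seen, were slightly higher with siControl. The median over 221 such genes above the floor was 0.05, where that of all genes was -0.03. Above 0 were 140 of the 221, where 42.2% of all genes were. For siTET2 minus miR-29b in DU145, 155 of the 221 were above 0, with a median of 0.12. There, 4428 of all 9209 genes were above 0, with a median of -0.01. For siControl minus nc in LNCaP the median over 198 was 0.09, where that of all genes above both floors was 0.03. Their promoters had a median GC content of 62.0%, where that of all genes was 66.0%. Over 5 equal groups of genes by promoter GC content, the median difference was -0.02 in the lowest group and -0.06 in the highest in DU145, and 0.07 and -0.05 in LNCaP.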
